A study of Mus musculus with 8 samples.

Results

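The genes described here encode the ATP-dependent chromatin remodelling complexes. They were chosen by symbol from a fixed list of 42 mouse genes, matched to the identifiers of the deposited count table, and all 42 were found among its 55385 genes. The list holds 15 subunits of the SWI/SNF complexes, 6 genes of the ISWI complexes, 6 CHD-family motors, 6 genes of the NuRD complex, 5 genes of the INO80, SWR1 and TIP60 complexes, and 4 other motors related to SNF2. Of the 42 genes, 40 had enough reads to be tested. The other two, Smarca1 and Smarcd3, held at most 8 reads in any library.

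Each remodelling complex is built around an ATPase motor that uses ATP to slide, evict or exchange nucleosomes. The motor is joined by subunits that bind DNA, histone tails or transcription factors, and many of these subunits come in paralogs that replace one another and give a complex its variant forms. A growing oocyte transcribes and stores mRNAs for such proteins. Transcription stops before the oocyte resumes meiosis, so that the mRNA pool of a mature egg is shaped by decay and by changes in poly(A) tails. In mouse, maternal Smarca4 is known to be needed for the start of transcription in the embryo.

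The series examined oocytes grown in culture from mouse embryonic stem cells (strain C57BL/6 x 129/SvJ) that carried the reporter transgenes Blimp1-mVenus and Stella-ECFP. One XX stem cell line is labelled sex-converted and the other native XX, and each is a single line, so that the line and its clone cannot be told apart. Germ cell-like cells from either line were aggregated with female gonadal somatic cells of embryonic day 12.5, cultured to day 21, and their follicles then grown for 11 days. Oocytes were taken after growth at the germinal vesicle stage (GV, held in meiotic prophase) or after 16 hours of maturation at metaphase II (MII, arrested before fertilisation), and only those with the Stella reporter were kept. The 4 groups were sex-converted MII, sex-converted GV, native MII and native GV oocytes. Each held 2 libraries that the labels call biological duplicates, made from 35 to 58 pooled oocytes at MII or 31 to 158 at GV.

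Libraries held 10306471 to 14999003 assigned reads, and the remodelling genes took 0.483% to 0.496% of them at MII and 0.537% to 0.594% at GV. All 10 oocyte markers were detected in every library, with summed levels of 17524 to 21099 CPM at MII and 13998 to 16767 CPM at GV. Single markers went both ways. Gdf9 (7847 to 9599 CPM at MII and 3791 to 4361 CPM at GV), Oosp1 (4130 to 5163 CPM at MII and 685 to 846 CPM at GV) and Dppa3 were higher in every MII library. Zp2, Zp3, Bmp15, Nlrp5 and Ooep (120 to 218 CPM at MII and 789 to 996 CPM at GV) were lower in every MII library, and Zp1 and Zar1 overlapped. CPM here stands for read counts scaled to library totals with TMM factors. Markers of granulosa and cumulus cells summed to 115 to 134 CPM at MII and 55.8 to 77.9 CPM at GV. Of these 12 markers, 7 to 10 were detected at MII and 8 to 10 at GV. Most of the MII sum came from Cyp19a1 (48.0 to 63.5 CPM at MII and 12.4 to 19.4 CPM at GV) and Kitl (21.2 to 35.8 CPM at MII and 3.17 to 5.96 CPM at GV). Most of the GV sum came from Nr5a2 (31.3 to 47.4 CPM at GV), which was lower in every MII library. Fshr was at 0 in all MII libraries and reached 1.43 CPM at GV. Stromal and theca markers summed to 2.38 to 18.7 CPM at MII and 0.877 to 1.55 CPM at GV, with 3 to 4 of 8 detected at each stage. Vim held 1.43 to 16.7 CPM at MII and 0.0487 to 0.223 CPM at GV, Col1a1 was detected in native MII alone (0.573 and 0.347 CPM), and Col1a2 and Lum were at 0 throughout. The highest stromal sum, 18.7 CPM, was in native MII replicate 1. Blood and endothelial markers summed to 195 to 280 CPM at MII and 60.4 to 91.6 CPM at GV, nearly all of it from Pecam1, with 2 to 4 of 6 detected at each stage and Hba-a1 at 0 throughout. The part of these cells in the stage differences was not tested. Among the GV libraries, sex-converted replicate 2 and native replicate 1 held 1674 and 1869 CPM of mitochondrial mRNA, against 526 and 558 CPM in sex-converted replicate 1 and native replicate 2. Every MII library held more mitochondrial mRNA, at 5910 to 7280 CPM. The part of this difference in the stage results was not tested. Since RNA was selected on poly(A), a level here is that of polyadenylated mRNA, and changes in tail length and in amount cannot be told apart. In pooled oocytes, fewer cells with an mRNA cannot be told apart from less of it per cell.

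MII was set against GV in each line to ask how maturation changes the stored mRNAs. In the sex-converted line 14 of the 40 tested genes were higher at MII and 15 were lower (edgeR adjusted p under 0.05), where 29.3% of all 14929 tested genes were higher and 36.2% lower. In the native line 13 were higher and 13 lower, against 29.6% and 35.7% of all genes. The same 13 were higher in both lines (26.9% of all genes) and the same 13 lower in both (32% of all genes), and 12 of each changed by at least 2-fold in both lines (23.2% and 29.7% of all genes). The remaining 14 were 11 called in neither line and 3 called in the sex-converted line alone, namely Smarcd1, Pbrm1 and Mta1, for which the line by stage interaction was not called (unadjusted p = 0.121, 0.589 and 0.120). Every MII library of a line lay above every GV library of that line, in both lines, for 14 of the 40 genes (33.9% of all genes), and below for 16 (42.1% of all genes). The median log2 fold change of the 40 was -0.13 in the sex-converted line and -0.13 in the native line, and over all tested genes it was -0.35 and -0.31 in the same lines. The shares called are near those of all genes. The size and direction of the change differed from subunit to subunit of the same complex, as the plot of fold changes shows. Scaled by library totals alone, all genes had a median of -1.28 in the sex-converted line and -1.22 in the native line, and the called remodelling genes split into 11 higher and 25 lower in the sex-converted line and 11 higher and 24 lower in the native line. On that scale each of the 11 genes called in neither line was called lower, in both lines except for Smarce1 (native alone) and Srcap (sex-converted alone). A change is therefore one relative to the remaining mRNAs, and total mRNA per oocyte was not measured.

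**Figure D1:**
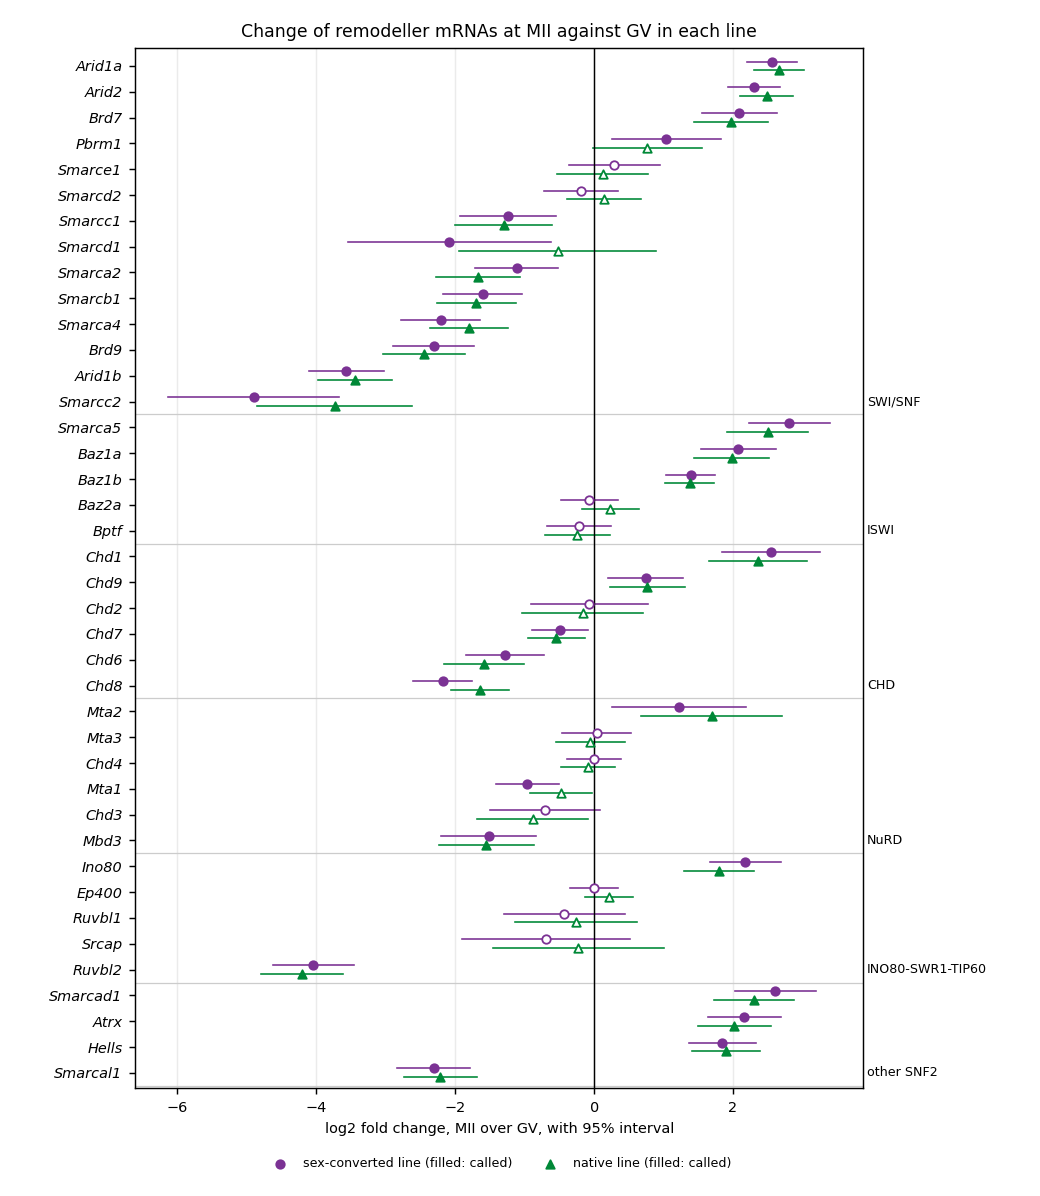
Log2 fold change of MII over GV (horizontal axis) with its 95% interval for the 40 tested genes, grouped by complex, in the sex-converted line (circles) and the native line (triangles), with filled symbols where the gene was called. Arid1a and Smarca5 stood near 2.6 in both lines, Smarcc2, Ruvbl2 and Arid1b lay below -3, and Chd4, Ep400 and Mta3 lay within 0.25 of 0.

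The 3′ ends of these mRNAs are shown because short U-rich elements close to the AATAAA or ATTAAA signal are known to direct tail lengthening in maturing oocytes. TTTTAT and TTTTAAT (cytoplasmic polyadenylation elements, written as DNA) and both signals were searched on the transcript strand in the last 100 bases of 1 transcript per gene (GENCODE M21, GRCm38). An element overlapped the signal in some of them. In the lines that follow, 5′ to 3′, capitals mark the elements and signals. The first 3 belong to genes higher at MII with an element, the next 2 to genes higher at MII without one in the window, the next 2 to genes lower at MII with one, and the last 2 to genes lower at MII without one.
Smarcad1 (chr6:65116007-65116036, forward strand): TTTTATtatgtcttgggtttAATAAAaata
Ino80 (chr2:119373043-119373072, reverse strand): AATAAAatggagtgagataaTTTTATgtaa
Chd9 (chr8:91054485-91054514, forward strand): TTTTATTAAAcatattctttgactacccat
Arid1a (chr4:133679008-133679034, reverse strand): gAATAAAtgtacATTAAAtcttggtaa
Smarca5 (chr8:80698509-80698538, reverse strand): aatgtatcagacAATAAAggaaggatgttg
Smarcc2 (chr10:128490134-128490163, forward strand): ttttccttttttTTTTATaaattaatttgc
Chd7 (chr4:8867625-8867654, forward strand): TTTTAATAAAagtgacccatgatatgcaga
Arid1b (chr17:5347624-5347653, forward strand): ccttgcttttaaAATAAAgtgcctcctaac
Brd9 (chr13:73960853-73960882, forward strand): aacacaggtcctAATAAAgagatgcctaag
An element was found in 4 of the 13 genes higher in both lines (30.8%, exact Clopper-Pearson 95% interval 9.09% to 61.4%) and in 2 of the 13 genes lower in both (15.4%, 1.92% to 45.4%). These intervals overlap. Of all tested protein-coding genes, 19.2% held one, with 33.3% of those higher in both lines and 9.91% of those lower in both. In the last 200 bases an element was found in 6 of the 13 genes higher (46.2%) and 2 of the 13 lower (15.4%). There 28.5% of all tested protein-coding genes held one, with 46.1% of those higher in both lines and 16.3% of those lower in both. The signal was found in 84.6% of the remodelling genes higher in both lines, in 84.6% of those lower in both and in 80.3% of all tested protein-coding genes. The median 3′ UTR length was 1699 bases in the genes higher in both lines and 951 bases in those lower in both, against 1430.5 and 653 bases in all protein-coding genes that were higher or lower in both. A match describes letters in the window and is not a shown site.

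SWI/SNF complexes have 1 of 2 motors, Smarca4 or Smarca2, on a shared core. The mRNAs of both motors and of the core subunits Smarcb1, Smarcc1 and Smarcc2 were lower at MII. Those of the PBAF subunits Arid2 and Brd7 were higher, Arid1a was higher and its paralog Arid1b lower. Of 14 tested subunits, 3 were higher and 7 lower in both lines, 2 were called in neither and 2 in the sex-converted line alone. Of all tested genes 26.9% were higher in both lines and 32% lower, the shares beside which each complex's counts stand here and in the paragraphs that follow. The median log2 fold change was -1.17 in the sex-converted line and -0.91 in the native line, against -0.35 and -0.31 over all tested genes.

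The motor Smarca4 had 22.3 and 17.9 CPM in sex-converted MII oocytes and 32.3 and 20.7 CPM in native MII oocytes, against 91.7 and 93.8 CPM in sex-converted GV and 97.4 and 87.5 CPM in native GV oocytes. Every MII library was below every GV library, by 4.62-fold in the sex-converted line and 3.48-fold in the native line (edgeR adjusted p = 2.34e-05 for sex-converted and 9.04e-05 for native). Its alternative Smarca2 had 58.7 and 86.0 CPM in sex-converted MII and 59.1 and 50.7 CPM in native MII oocytes, against 133 and 180.1 CPM in sex-converted GV and 211 and 138 CPM in native GV oocytes. It was lower by 2.16-fold (sex-converted) and 3.18-fold (native), again with no overlap. Smarcb1, a core subunit that contacts the nucleosome, was 3.04-fold lower in the sex-converted line and 3.23-fold lower in the native line. The paralogs Smarcc1 and Smarcc2 are scaffold subunits of the core, present as a pair of like or unlike copies. Smarcc2 was close to the limit of detection at MII, with 1.53 and 0.571 CPM in sex-converted MII and 3.34 and 0.926 CPM in native MII oocytes, against 29.0 and 32.9 CPM in sex-converted GV and 34.4 and 24.1 CPM in native GV oocytes. Its log2 fold change was -4.90 ± 0.56 (SE) in the sex-converted line and -3.73 ± 0.51 in the native line. Without native MII replicate 1, the library with the most Smarcc2 at MII, the native value was -4.98, and without sex-converted MII replicate 1 the sex-converted value was -5.75. Smarcc1 was 2.35-fold (sex-converted) and 2.47-fold (native) lower, with 13.1 and 10.1 CPM in sex-converted MII against 29.4 and 25.2 CPM in sex-converted GV oocytes. Without sex-converted MII replicate 2 its change in that line was no longer called (log2 fold change -1.05, edgeR adjusted p = 0.0515). A stretch of 123 bases of its exons overlaps Dhx30 on the other strand, and reads from there could count for either gene if counting ignored strand.

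None of the remaining core subunits was called in both lines. Smarcd2, an adaptor that meets transcription factors, had 159 and 158 CPM in sex-converted MII and 219 and 167 CPM in native MII oocytes, against 212 and 149 CPM in sex-converted GV and 142 and 208 CPM in native GV oocytes, and the stages overlapped in both lines. Smarce1, which carries an HMG-type DNA-binding domain, likewise overlapped, at 73.8 and 76.4 CPM in sex-converted MII against 45.9 and 76.6 CPM in sex-converted GV oocytes and 83.1 and 71.3 CPM in native MII against 89.1 and 52.4 CPM in native GV oocytes. The adaptor Smarcd1 was at the limit of detection, with 0.438 and 0.571 CPM in sex-converted MII against 2.27 and 2.1 CPM in sex-converted GV oocytes, and 1.15 and 0.463 CPM in native MII against 1.17 and 1.2 CPM in native GV oocytes. Its call in the sex-converted line (edgeR adjusted p = 0.0166) was lost when any of that line's libraries but GV replicate 2 was left out, at adjusted p 0.0551 to 0.0847. The third adaptor, Smarcd3, held 0 to 5 reads at MII and 0 to 7 at GV.

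The ARID paralogs moved in opposite directions. Arid1a, the large DNA-binding subunit of the canonical BAF form, had 1274 and 1134 CPM in sex-converted MII and 1157 and 1314 CPM in native MII oocytes, against 207 and 201 CPM in sex-converted GV and 202 and 189 CPM in native GV oocytes. Arid1b, which can take its place, had 24.1 and 20.2 CPM in sex-converted MII and 30.8 and 19.7 CPM in native MII oocytes, against 264 and 259.6 CPM in sex-converted GV and 288 and 262 CPM in native GV oocytes. Neither gene's stages overlapped. Arid1a was 5.9-fold higher in the sex-converted line and 6.31-fold higher in the native line (edgeR adjusted p = 6.44e-07 for sex-converted and 5.09e-07 for native), and Arid1b was 11.8-fold (sex-converted) and 10.9-fold (native) lower (edgeR adjusted p = 9.28e-07 for sex-converted and 9.97e-07 for native).

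The PBAF form is defined by Arid2, Pbrm1 and the bromodomain protein Brd7. Arid2 had 385 and 401 CPM in sex-converted MII and 387 and 427 CPM in native MII oocytes, against 75.2 and 84.3 CPM in sex-converted GV and 71.6 and 74.2 CPM in native GV oocytes, a 4.92-fold (sex-converted) and 5.58-fold (native) rise. Brd7 was 4.26-fold higher in the sex-converted line and 3.93-fold higher in the native line, at 379 and 443 CPM in sex-converted and 426 and 404 CPM in native MII oocytes, against 78.6 and 115 CPM in sex-converted and 126 and 85.1 CPM in native GV oocytes. Pbrm1, the polybromo subunit, was far scarcer. It had 13.2 and 16.4 CPM in sex-converted MII against 8.82 and 5.6 CPM in sex-converted GV oocytes, and 16.5 and 10.9 CPM in native MII against 9.47 and 6.68 CPM in native GV oocytes. Its stages did not overlap, and it was called in the sex-converted line alone (edgeR adjusted p = 0.0239 for sex-converted and 0.0806 for native). Without sex-converted GV replicate 2 or MII replicate 2 that call was lost (adjusted p 0.136 and 0.125), and its native log2 fold change, 0.76, turned to -0.15 with library totals alone. Phf10, a further PBAF subunit named after its values were seen, was 2.9-fold (sex-converted) and 2.62-fold (native) higher.

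The non-canonical form carries Brd9, Bicra or Bicral. Brd9, the bromodomain partner of that form, had 7.66 and 10.2 CPM in sex-converted MII and 7.35 and 8.22 CPM in native MII oocytes, against 41.1 and 47.6 CPM in sex-converted GV and 46.6 and 38.6 CPM in native GV oocytes. It fell 4.96-fold (sex-converted) and 5.47-fold (native) with no overlap, the opposite direction to Brd7. Bicral was 7.6-fold lower in the sex-converted line and 11.5-fold lower in the native line. Of the 12 tested SWI/SNF subunits outside the 42 genes, 4 were higher and 4 lower in both lines. The leading ones that were higher were Ss18, a subunit of the canonical and non-canonical forms, 8.17-fold (sex-converted) and 8.54-fold (native) higher, and Bcl7c, 4.4-fold (sex-converted) and 5.4-fold (native) higher. Dpf3, a histone-reading subunit of the canonical form, was 3.95-fold (sex-converted) and 3.94-fold (native) lower.

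**Figure D2:**
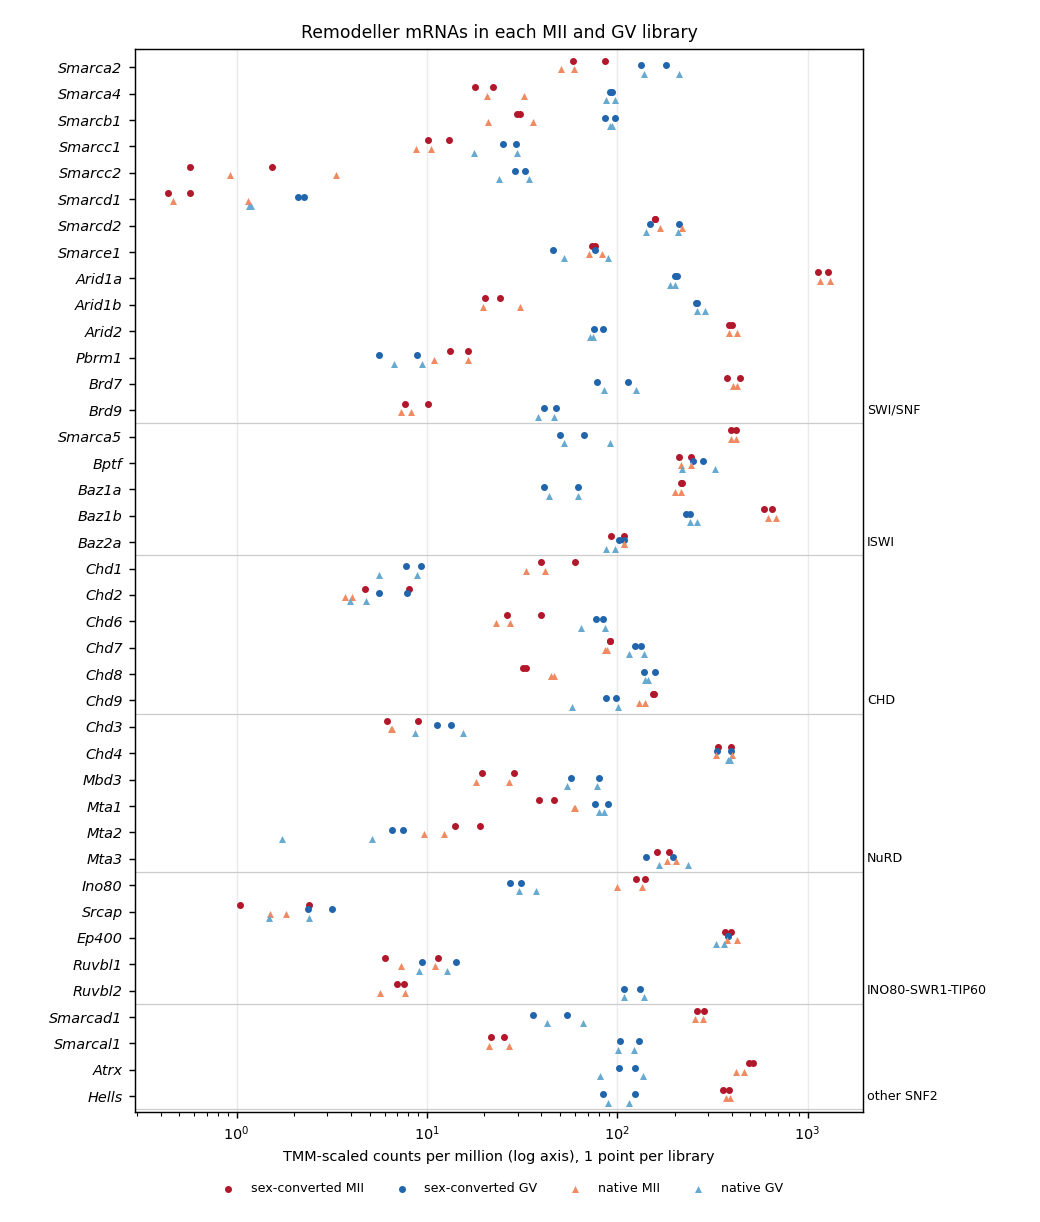
TMM-scaled CPM on a log axis for the 40 tested genes, 1 point per library, in sex-converted MII (dark red circles), sex-converted GV (dark blue circles), native MII (orange triangles) and native GV (light blue triangles) oocytes. MII points lie right of GV points for Arid1a, Arid2, Brd7 and Smarca5 and left of them for Smarca4, Smarcc2, Arid1b and Ruvbl2 in both lines.

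ISWI complexes pair a motor with a large regulatory subunit and space nucleosomes evenly. Their motor and 2 of the 4 regulatory subunits were higher at MII and none was lower, with a median log2 fold change of 1.39 in the sex-converted line and 1.38 in the native line. The motor Smarca5 had 394 and 423 CPM in sex-converted MII and 395 and 422 CPM in native MII oocytes, against 49.8 and 66.7 CPM in sex-converted GV and 91.9 and 52.8 CPM in native GV oocytes. No MII library overlapped a GV library, and the rise was 7.01-fold in the sex-converted line and 5.64-fold in the native line (edgeR adjusted p = 5.55e-06 for sex-converted and 1.13e-05 for native). The second ISWI motor, Smarca1, held 0 to 8 reads at MII and 0 to 3 at GV, and was not tested.

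Baz1a, the partner of Smarca5 in the ACF and CHRAC complexes, had 215 and 220.1 CPM in sex-converted MII and 216 and 202 CPM in native MII oocytes, against 41.4 and 62.1 CPM in sex-converted GV and 62.3 and 43.8 CPM in native GV oocytes. It was 4.21-fold (sex-converted) and 3.94-fold (native) higher. Baz1b, the partner of Smarca5 in the WICH complex, was 2.62-fold (sex-converted) and 2.6-fold (native) higher, at 589.7 and 647 CPM in sex-converted and 686 and 622 CPM in native MII oocytes, against 242 and 229.9 CPM in sex-converted and 263 and 240.1 CPM in native GV oocytes. Bptf, the histone-reading subunit of NURF, had 212 and 245 CPM in sex-converted MII against 249 and 282 CPM in sex-converted GV oocytes, which lay just apart, and 243 and 218 CPM in native MII against 328 and 218 CPM in native GV oocytes, which overlapped. Baz2a, the partner of Smarca5 in the nucleolar NoRC complex, had 108 and 92.3 CPM in sex-converted MII against 108 and 102 CPM in sex-converted GV oocytes, which overlapped, and 109 and 108 CPM in native MII against 87.5 and 97.7 CPM in native GV oocytes, which did not. Bptf and Baz2a were not called in either line. With library totals alone both were called lower, Bptf at log2 fold changes of -1.15 in either line (edgeR adjusted p = 0.000513 for sex-converted and 0.000527 for native) and Baz2a at -1.004 in the sex-converted line and -0.68 in the native line (edgeR adjusted p = 0.000824 for sex-converted and 0.0082 for native). Of 5 further ISWI genes, 3 were higher in both lines and none lower in both. Cecr2, a bromodomain partner of ISWI motors, was 6.73-fold (sex-converted) and 7.02-fold (native) higher and Baz2b was 5.05-fold (sex-converted) and 5.55-fold (native) higher. Without native GV replicate 1 the native log2 fold change of Baz2b was 3.12, against 2.47 with all libraries.

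The CHD motors carry chromodomains that read methylated histones. They split by paralog, with 2 higher, 3 lower and 1 called in neither line. Chd1, which travels with elongating RNA polymerase, had 39.6 and 60.0 CPM in sex-converted MII and 41.6 and 33.2 CPM in native MII oocytes, against 7.81 and 9.31 CPM in sex-converted GV and 8.91 and 5.63 CPM in native GV oocytes. It was 5.81-fold (sex-converted) and 5.12-fold (native) higher with no overlap (edgeR adjusted p = 3.95e-05 for sex-converted and 7.08e-05 for native). Its closest paralog Chd2 had 8.1 and 4.76 CPM in sex-converted MII against 7.87 and 5.6 CPM in sex-converted GV oocytes, and 3.72 and 4.05 CPM in native MII against 3.95 and 4.78 CPM in native GV oocytes. The stages of Chd2 overlapped in both lines. Exons of Chd2 share 2628 bases with 1810026B05Rik on the same strand, and reads common to both may have been left out of its count.

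Of the 4 remaining CHD motors, Chd8 changed most. It had 33.2 and 32.1 CPM in sex-converted MII and 46.5 and 45.0 CPM in native MII oocytes, against 158 and 138 CPM in sex-converted GV and 145 and 140.5 CPM in native GV oocytes, 4.54-fold (sex-converted) and 3.12-fold (native) lower. Chd6 was 2.43-fold (sex-converted) and 2.99-fold (native) lower. Chd7, a motor needed for neural crest development, was 1.41-fold (sex-converted) and 1.46-fold (native) lower, with 91.2 and 91.1 CPM in sex-converted MII against 133 and 123 CPM in sex-converted GV oocytes, and 85.9 and 88.6 CPM in native MII against 139 and 116 CPM in native GV oocytes. The stages of Chd7 did not overlap, and it was called in both lines (edgeR adjusted p = 0.0355 for sex-converted and 0.0227 for native). Its sex-converted call was lost with RLE factors, without a filter and with a replicate block (edgeR adjusted p = 0.0584, 0.0606 and 0.0609). Its native call was lost when only the 4 native libraries were fitted (edgeR adjusted p = 0.0574). Leaving out any 1 library of the sex-converted line ended its call there (edgeR adjusted p 0.0991 to 0.162), as did DESeq2 (adjusted p = 0.0711), and leaving out native GV replicate 1 or either native MII library ended its native call (edgeR adjusted p 0.0751 to 0.151). Chd9 was 1.67-fold (sex-converted) and 1.7-fold (native) higher with TMM scaling and not called with library totals alone, at log2 fold changes of -0.20 (sex-converted) and -0.14 (native). It had 156 and 154 CPM in sex-converted MII and 140.1 and 130 CPM in native MII oocytes, against 98.4 and 86.8 CPM in sex-converted GV and 100.4 and 58.2 CPM in native GV oocytes. Without native GV replicate 2, the lowest of these, its native log2 fold change was 0.42 (edgeR adjusted p = 0.119), and 5 further omissions of a library ended its call in the line concerned, at adjusted p 0.0504 to 0.0854.

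The NuRD complex joins a CHD motor to histone deacetylases. Its main motor was not called, Mbd3 was lower in both lines and the scaffold Mta2 higher. Chd4, the main motor, had 338 and 394 CPM in sex-converted MII and 399 and 329 CPM in native MII oocytes, against 397 and 334 CPM in sex-converted GV and 392 and 381 CPM in native GV oocytes. The stages overlapped, and the 95% interval of the log2 fold change ran from -0.39 to 0.39 in the sex-converted line and from -0.48 to 0.30 in the native line. Scaled by library totals alone it was called lower in both lines, at -0.94 in the sex-converted line and -0.998 in the native line (edgeR adjusted p = 0.000922 for sex-converted and 0.000605 for native). The alternative motor Chd3 was scarce, at 8.98 and 6.18 CPM in sex-converted MII against 13.4 and 11.3 CPM in sex-converted GV oocytes and 6.59 and 6.48 CPM in native MII against 8.69 and 15.5 CPM in native GV oocytes. It was not called in either line (edgeR adjusted p = 0.107 for sex-converted and 0.0507 for native), although its MII libraries lay below its GV libraries in both. Its native change was called lower without a filter and at a mean of 50 reads or more (edgeR adjusted p = 0.0369 and 0.0368).

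Mbd3, which links the deacetylase and remodelling modules of NuRD, was 2.86-fold (sex-converted) and 2.93-fold (native) lower, at 19.4 and 28.7 CPM in sex-converted MII and 27.0 and 18.2 CPM in native MII oocytes, against 80.4 and 57.4 CPM in sex-converted GV and 54.5 and 78.2 CPM in native GV oocytes. The scaffold Mta2 was low at both stages, with 18.9 and 14.0 CPM in sex-converted MII and 12.3 and 9.6 CPM in native MII oocytes, against 7.51 and 6.58 CPM in sex-converted GV and 1.73 and 5.14 CPM in native GV oocytes. It was 2.33-fold (sex-converted) and 3.23-fold (native) higher (edgeR adjusted p = 0.0288 for sex-converted and 0.00729 for native). Its sex-converted call was lost without either GV library or MII replicate 1 of that line (edgeR adjusted p 0.0612 to 0.143). Without native GV replicate 2 the native log2 fold change of Mta2 was 2.65, and with library totals alone it was called in neither line (log2 fold changes 0.29 sex-converted and 0.77 native). Its paralog Mta1 had 38.9 and 46.6 CPM in sex-converted MII against 76.8 and 89.8 CPM in sex-converted GV oocytes, and 59.8 and 59.5 CPM in native MII against 85.7 and 80.3 CPM in native GV oocytes. No stage overlapped, and Mta1 was called in the sex-converted line alone (edgeR adjusted p = 0.00167 for sex-converted and 0.0582 for native), and in both lines with library totals alone (native edgeR adjusted p = 0.000119). Its native change was also called at a mean of 50 reads or more (edgeR adjusted p = 0.0230). Mta3, the scaffold with the highest level per kilobase, overlapped between stages in both lines, at 187 and 162 CPM in sex-converted and 204 and 183 CPM in native MII oocytes, against 142 and 197 CPM in sex-converted and 235 and 167 CPM in native GV oocytes. Of 9 further NuRD genes, 5 were higher and 2 lower in both lines. The histone chaperone subunit Rbbp7 was 4.55-fold (sex-converted) and 4.59-fold (native) higher, and the structural subunit Gatad2b was 3.62-fold (sex-converted) and 4.35-fold (native) higher. The alternative motor Chd5 was 3.02-fold (sex-converted) and 2.19-fold (native) lower, with a sex-converted log2 fold change of -0.87 without GV replicate 1 of that line (edgeR adjusted p = 0.0995), and its native call was lost when any 1 native library was left out (edgeR adjusted p 0.0549 to 0.0976).

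The INO80, SWR1 and TIP60 complexes share the paired helicases Ruvbl1 and Ruvbl2, which form a mixed ring. These partners parted in the data. Ruvbl2 had 7.01 and 7.61 CPM in sex-converted MII and 7.64 and 5.67 CPM in native MII oocytes, against 132 and 109 CPM in sex-converted GV and 109 and 138 CPM in native GV oocytes. It was 16.4-fold (sex-converted) and 18.4-fold (native) lower with no overlap (edgeR adjusted p = 7.28e-07 for sex-converted and 6.07e-07 for native). Exons of Gys1 on the other strand share 310 bases with Ruvbl2. Ruvbl1 had 6.02 and 11.5 CPM in sex-converted MII against 14.2 and 9.45 CPM in sex-converted GV oocytes, and 11.0 and 7.29 CPM in native MII against 12.8 and 9.08 CPM in native GV oocytes, and its stages overlapped in both lines.

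The motors of the 3 complexes also differed. Ino80 had 139.6 and 125 CPM in sex-converted MII and 100.1 and 135 CPM in native MII oocytes, against 31.1 and 27.4 CPM in sex-converted GV and 37.3 and 30.5 CPM in native GV oocytes, and was 4.52-fold (sex-converted) and 3.47-fold (native) higher. Ep400, the motor of the TIP60 complex, was not called, at 394 and 368 CPM in sex-converted MII against 382 and 383 CPM in sex-converted GV oocytes and 425 and 378 CPM in native MII against 362 and 331 CPM in native GV oocytes. Srcap, the mammalian SWR1-type motor that exchanges a histone variant into nucleosomes, was nearly absent, with 2.41 and 1.05 CPM in sex-converted MII against 3.16 and 2.39 CPM in sex-converted GV oocytes and 1.81 and 1.5 CPM in native MII against 2.39 and 1.48 CPM in native GV oocytes. Its exons share 9738 bases with the predicted gene Gm42715 on the same strand, and reads common to both may have been left out of its count. Of the 27 further genes of these complexes, 11 were higher and 12 lower in both lines. Mbtd1, a histone-reading subunit of TIP60, was 8.48-fold (sex-converted) and 9.36-fold (native) higher and reached 2310 and 2399 CPM in sex-converted MII against 259 and 296 CPM in sex-converted GV oocytes. Ino80d, a subunit of INO80, was 6.62-fold (sex-converted) and 6.54-fold (native) higher. Dmap1, shared by the TIP60 and SWR1-type complexes, had 2.41 and 0.856 CPM in sex-converted MII and 3.34 and 0.463 CPM in native MII oocytes, against 74.8 and 63.3 CPM in sex-converted GV and 60.2 and 69.7 CPM in native GV oocytes. Znhit1, a subunit of the SWR1-type complex, had 0.328 and 0 CPM in sex-converted MII and 2.1 and 0 CPM in native MII oocytes, against 16.3 and 19.8 CPM in sex-converted GV and 23.8 and 17.7 CPM in native GV oocytes. Native MII replicate 1 held the most of both genes at MII.

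The 4 single-motor relatives of SNF2 all changed, 3 upward and 1 downward. Smarcad1, a motor that acts on chromatin during replication and repair, had 264 and 286 CPM in sex-converted MII and 257 and 282 CPM in native MII oocytes, against 35.9 and 54.4 CPM in sex-converted GV and 66.4 and 42.8 CPM in native GV oocytes, 6.08-fold (sex-converted) and 4.93-fold (native) higher. Atrx, which binds heterochromatin and is known to mark pericentric chromatin of mouse oocytes, had 494 and 515 CPM in sex-converted MII and 462 and 422 CPM in native MII oocytes, against 103 and 123 CPM in sex-converted GV and 137 and 81.4 CPM in native GV oocytes. It was 4.47-fold (sex-converted) and 4.05-fold (native) higher. Hells, a motor needed for DNA methylation of repeats, was 3.59-fold (sex-converted) and 3.73-fold (native) higher, at 359 and 387 CPM in sex-converted and 394 and 371 CPM in native MII oocytes, against 84.0 and 123 CPM in sex-converted and 116 and 88.9 CPM in native GV oocytes. Its activating partner Cdca7 was 6.97-fold (sex-converted) and 5.44-fold (native) higher. Smarcal1, which anneals DNA at stalled replication forks, went the other way, with 21.8 and 25.3 CPM in sex-converted MII and 26.9 and 21.3 CPM in native MII oocytes, against 129.8 and 104 CPM in sex-converted GV and 101 and 123 CPM in native GV oocytes. It was 4.96-fold (sex-converted) and 4.63-fold (native) lower. MII and GV libraries overlapped for none of the 4. Of 14 further SNF2 relatives and partners, 7 were higher and 6 lower in both lines. Shprh, a ubiquitin ligase with a SNF2 domain, was 9.21-fold (sex-converted) and 8.78-fold (native) higher. Chd1l, a motor activated by poly(ADP-ribose), was 17.9-fold (sex-converted) and 20.5-fold (native) lower, with a sex-converted log2 fold change of -5.71 without MII replicate 1 of that line and -3.38 without MII replicate 2. Rad54b, a recombination motor that shares exons with Fsbp, was 10.0-fold (sex-converted) and 19.0-fold (native) lower.

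**Figure D3:**
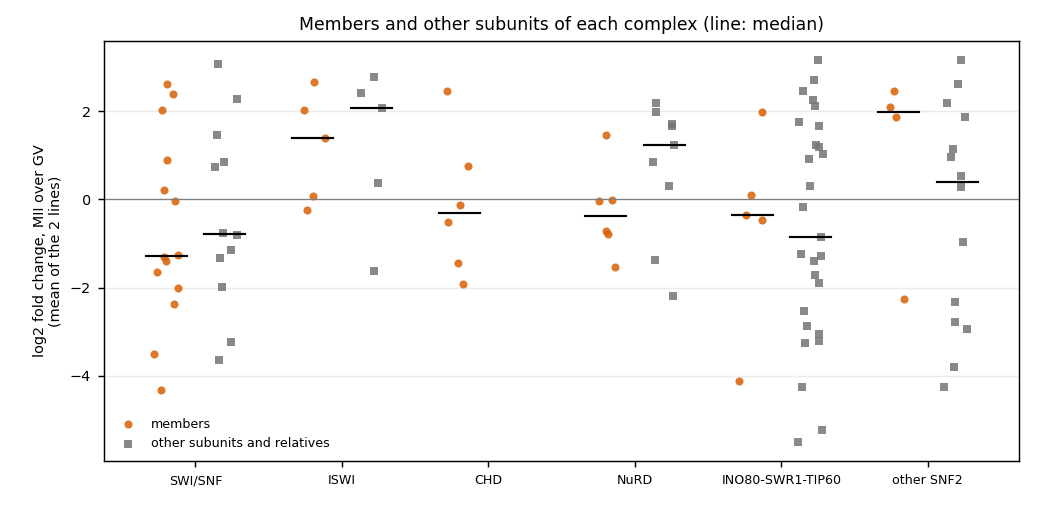
Log2 fold change of MII over GV, averaged over the 2 lines, for each of the 42 genes that was tested (orange circles) and for each tested other subunit or relative (grey squares), by complex, with the median as a black line. In the SWI/SNF and INO80 columns the points reach above 1.9 and below -3, and among the ISWI genes 3 circles lie above 1.3 and none below -0.25.

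Seen by role, 7 of the 18 tested motors were higher in both lines, 6 lower and 5 called in neither, and of the 22 other genes 6 were higher, 7 lower and 6 called in neither, where 26.9% of all tested genes were higher in both lines and 32% lower. Of the 67 tested further subunits and relatives, 30 were higher and 24 lower in both lines, and the median log2 fold change was 0.42 in the sex-converted line and 0.20 in the native line, against -0.35 and -0.31 over all tested genes in the same lines. Summed over each family, the SWI/SNF genes held 2405 to 2525 CPM at MII and 1275 to 1442 CPM at GV, of which Arid1a alone held 1134 to 1314 CPM at MII and 189 to 207 CPM at GV. The ISWI genes held 1518 to 1650 CPM at MII and 653 to 832 CPM at GV. The CHD motors held 324 to 382 CPM at MII and 390 to 483 CPM at GV, so that this family's sum was lower at MII in every library. The sums of the NuRD genes were 605 to 709 CPM at MII and 696 to 777 CPM at GV, which overlapped. The INO80, SWR1 and TIP60 genes also overlapped, at 513 to 549 CPM at MII and 510 to 562 CPM at GV. The 4 SNF2 relatives together held 1096 to 1213 CPM at MII and 336 to 420 CPM at GV. These sums depend on the scaling. As CPM of library totals alone, an alternative chosen after seeing the data, the SWI/SNF genes held 1758 to 1835 at MII and 1759 to 1912 at GV, which overlapped, and the ISWI genes 1111 to 1188 at MII and 900.3 to 1103 at GV. On that scale 3 families were lower in every MII library, the CHD motors at 235 to 279 against 538 to 688 at GV, the NuRD genes at 440 to 505 against 952 to 1031 at GV, and the INO80, SWR1 and TIP60 genes at 375 to 402 against 694 to 803 at GV. The SNF2 relatives held 796 to 886 at MII and 463 to 557 at GV.

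Ratios of paralogs within a library do not depend on how libraries are scaled. For 13 pairs the log2 ratio of reads per kilobase was compared between 4 MII and 4 GV libraries. The test was a two-sided exact permutation that took libraries of both lines as exchangeable, without line as a block. Its smallest possible p is 0.0286, which became 0.0464 on adjustment over the 13 because 8 pairs tied at it. The pairs were chosen with the fold changes known, so that these p-values are no independent support. With 4 libraries against 4, that smallest p means no overlap between stages, as held for the 8 pairs. The ratio of Arid1a to Arid1b was 57.2 at MII and 0.819 at GV, a difference of 6.13 on the log2 scale (exact permutation p = 0.0286). On the log2 scale it was 5.86 and 5.95 in sex-converted MII and 5.36 and 6.19 in native MII libraries, against -0.21 and -0.23 in sex-converted GV and -0.38 and -0.33 in native GV libraries. The paralogs were thus near-equal per kilobase at GV, and Arid1a was in large excess at MII. The ratio of Brd9 to Brd7, the non-canonical to the PBAF subunit, was 0.0153 at MII and 0.330 at GV. The helicase partners Ruvbl1 and Ruvbl2 stood at a ratio of 1.90 at MII and 0.141 at GV. The scaffolds Smarcc1 and Smarcc2 stood at 5.57 at MII and 0.595 at GV, with the log2 ratio of single MII libraries between 1.14 and 3.54. Chd1 stood at 14.1 times the level of Chd2 at MII and 2.37 times at GV. Mta1 stood at 4.98 times the level of Mta2 at MII and 23.7 times at GV. Chd8 against Chd7 was 0.362 at MII and 0.950 at GV, and Smarcd1 against Smarcd2 was 0.00338 at MII and 0.00835 at GV. The last ratio rests on 4 to 12 reads of Smarcd1 in the MII libraries. The native change of Smarcd1 was not called (edgeR adjusted p = 0.488). The SWI/SNF motors, Smarca4 to Smarca2, did not reach the threshold, at ratios of 0.805 at MII and 1.26 at GV (exact permutation p = 0.0857). Chd4 to Chd3 was 54.5 at MII and 33.0 at GV (exact permutation p = 0.0571), and Mta3 to Mta2 was 10.6 at MII and 30.4 at GV (exact permutation p = 0.0571). The 2 pairs with Smarca1 and Smarcd3 rest on 8 or fewer reads of 1 partner and are not described. The ratios themselves, unlike their differences between stages, depend on the gene length used. Per kilobase of 1 transcript, Smarca4 and Smarca2 had 14.6 and 27.9 CPM at GV, against 14.3 and 11.6 by all annotated exons. Chd8 and Chd7 had 17.1 and 12.5 CPM at GV per kilobase of transcript, against 8.78 and 9.25 by exons. The order within both pairs at GV thus reversed.

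**Figure D4:**
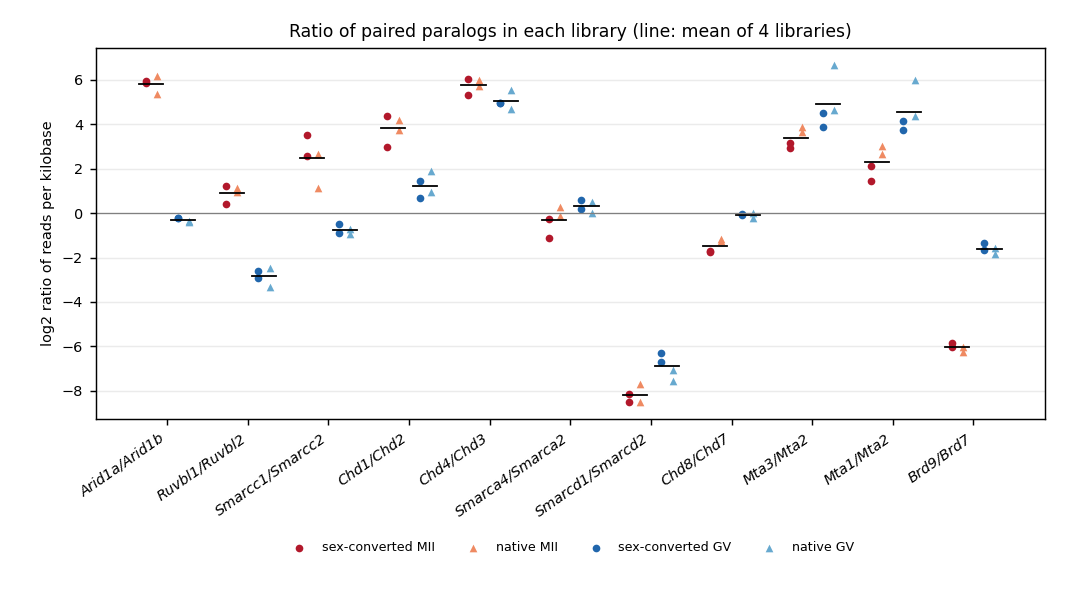
Log2 ratio of reads per kilobase of the first to the second gene of 11 pairs (vertical axis), 1 point per library, MII left of GV within each pair, with the mean of the 4 libraries of a stage as a black line. Arid1a/Arid1b stood near 5.8 at MII and near -0.3 at GV, Brd9/Brd7 near -6.0 at MII and -1.6 at GV. The 2 lines lay apart at both stages for Mta1/Mta2 and Mta3/Mta2, and at one stage for Smarca4/Smarca2, Smarcd1/Smarcd2, Arid1a/Arid1b and Chd8/Chd7.

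Levels of different genes were compared per kilobase of exon. At MII, Arid1a led at 106 ± 7.63 CPM per kilobase (SD, n = 4 libraries of both lines), followed by Brd7 at 78.7 ± 5.25, and these did not overlap. Smarca5 at 52.5, Hells at 52.3, Smarcd2 at 48.9, Baz1b at 46.5 and Chd4 at 45.5 CPM per kilobase followed, and neighbours in that order overlapped. At GV the first places were held by Smarcd2 at 49.4 ± 10.4, Chd4 at 46.8 ± 3.61 and Ruvbl2 at 41.9 ± 5.26 CPM per kilobase, which overlapped, and Arid1a was 13th at 17.4 ± 0.670. Srcap had the lowest level of the 40 at either stage, 0.107 ± 0.0362 at MII and 0.149 ± 0.0435 at GV. Reads it shares with Gm42715 may have been left out of its count, which would lower this level. These orders depend on the length used. Per kilobase of 1 transcript in place of all annotated exons, Arid1a remained first at MII with 149 CPM per kilobase, Mta3 led at GV with 88.7, and Smarcb1 moved to 17.7 at MII and 55.6 at GV, against 3.71 and 11.6 by exons.

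The lines were compared at each stage to ask whether oocytes from sex-converted cells differ from those of native XX cells. None of the 40 genes was called at MII, at GV or for the line by stage interaction (edgeR), where 0.0134%, 0.0134% and 0% of all genes were called. At an unadjusted p under 0.05 stood 2 of the 40 at MII (3.68% of all genes), 1 at GV (2.14%) and 0 for the interaction (2.20%), and no alternative processing called a member. DESeq2 called none either. Chd8 at MII was 33.2 and 32.1 CPM in sex-converted against 46.5 and 45.0 CPM in native oocytes (unadjusted p = 0.0252), and Mta1 was 38.9 and 46.6 CPM in sex-converted against 59.8 and 59.5 CPM in native oocytes (unadjusted p = 0.0395). Mta2 at GV was 7.51 and 6.58 CPM in sex-converted against 1.73 and 5.14 CPM in native oocytes (unadjusted p = 0.0404). The libraries of the lines did not overlap for these 3 genes, which is no further support, since they were picked by an unadjusted p under 0.05. Baz2a alone of the 40 lay apart between the lines at both stages in opposite directions, as did 2.8% of all tested genes. The median absolute log2 difference between the lines was 0.12 at MII and 0.09 at GV over the 40 genes, and 0.23 and 0.19 over all tested genes. For Arid1a the difference between the lines had a 95% interval of -0.37 to 0.30 on the log2 scale at MII, and for Smarca4 one of -0.96 to 0.16. Differences within those bounds are not excluded by 2 libraries a group.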

How the data were processed

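Counts were made by the authors from polyadenylated RNA of pooled oocytes and deposited as raw read counts per gene. Per the submitters' processing notes, Trimmomatic 0.38, HISAT2 2.1.0, featureCounts 2.0.0, DESeq2 1.30.1 and mm10 were used. The sources used here give no strand setting, multi-mapping rule or annotation release, so overlapping and antisense genes and near-identical copies are uncertain. Groups came from the sample titles, and the columns named M2 were read as MII. Symbols, exon lengths and transcripts came from GENCODE M21 (GRCm38, the assembly mm10 names), and 55144 of 55385 identifiers matched.

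All 8 libraries were fitted with edgeR 4.0.16 (R 4.3.3) by the quasi-likelihood test with 1 coefficient per group, TMM scaling (factors 0.714 to 0.733 at MII and 1.33 to 1.43 at GV) and filterByExpr at a minimum count of 10, which left 14929 genes and 4 residual degrees of freedom. The common biological coefficient of variation was 0.243. Tests were two-sided, and p was adjusted over all genes by Benjamini-Hochberg, with a threshold of 0.05. Paralog ratios had 0.5 reads added and were tested by exact permutation (scipy 1.17.1). P-values measure the spread between libraries. Alternatives were RLE factors, library totals, other filters, a replicate block, DESeq2 1.42.0, fits of 4 libraries and leaving out each library. Intervals on shares cover counting error only.

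The 42 genes, the further subunits, the markers and the pairs were chosen with earlier results of these data known. All 42 may be named, and of the further subunits up to 2 per complex and direction, called in both lines at 10 CPM or more, with the largest change. Phf10 was named outside this rule, after its values were seen. Replicate numbers did not pair the libraries: deviations of same-numbered libraries correlated at -0.52 between the GV groups and at 0.18 between the MII groups.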

Additional observations from a re-analysis of the deposited data

Results flagged for a closer look

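Baz2a, a partner of the ISWI motor Smarca5, was the only one of the 40 genes for which the difference between the lines went opposite ways at the 2 stages without overlap (2.8% of all 14929 tested genes). At MII it had 107.9 and 92.3 CPM in sex-converted oocytes, against 108.6 and 108.4 CPM in native oocytes. At GV it had 108.0 and 101.8 CPM in sex-converted oocytes, against 87.5 and 97.7 CPM in native oocytes. The log2 fold change of MII over GV differed by -0.30 (sex-converted minus native), and edgeR did not call this interaction (unadjusted p = 0.285).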

How the results depend on the processing

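With 2 libraries a group, small changes and genes below about 1 CPM cannot be resolved. Library totals as the only scaling moved the genes called lower to 25 in the sex-converted line and 24 in the native line, the additions being those called in neither line (except Smarce1 in the sex-converted line and Srcap in the native line) and, in the native line, Mta1, and turned the sign of the sex-converted log2 fold changes of Smarce1 (-0.64), Chd9 (-0.20), Chd4 (-0.94) and Mta3 (-0.89) and of the native ones of Smarcd2 (-0.77), Smarce1 (-0.78), Pbrm1 (-0.15), Baz2a (-0.68), Chd9 (-0.14) and Ep400 (-0.70). These shifts follow the scaling, which moved the median of all genes by about the same amount. Values near 0 in the sex-converted line also changed sign for Ep400 with RLE factors (0.045) and DESeq2 (0.0096), for Chd4 without a filter (-0.0431), at a mean of 50 reads or more (-0.10) and from the comparison's own 4 libraries (-0.00406), and for Mta3 without a filter (-0.00654) and at 50 reads (-0.063). Leaving out 1 library at a time gave sex-converted log2 fold changes of -0.39 to 0.088 for Smarcd2, -0.023 to 0.74 for Smarce1, -0.50 to 0.27 for Chd2, -0.17 to 0.32 for Mta3, -0.11 to 0.14 for Chd4, -0.061 to 0.044 for Ep400 and -0.19 to 0.041 for Baz2a. In the native line it gave -0.088 to 0.44 for Smarcd2, -0.21 to 0.58 for Smarce1, -0.29 to 0.24 for Mta3, -0.24 to 0.021 for Chd4, -0.51 to 0.10 for Bptf, -0.53 to 0.19 for Srcap and -0.60 to 0.028 for Ruvbl1. With a library left out, 3 against 4 cannot pass the adjusted threshold for any pair ratio, whose MII minus GV log2 differences ran 6.01 to 6.29 for Arid1a/Arid1b, -4.51 to -4.35 for Brd9/Brd7, 3.59 to 3.93 for Ruvbl1/Ruvbl2, 2.87 to 3.67 for Smarcc1/Smarcc2, 2.39 to 2.85 for Chd1/Chd2, -2.53 to -1.77 for Mta1/Mta2, -1.50 to -1.29 for Chd8/Chd7 and -1.52 to -1.10 for Smarcd1/Smarcd2. With 2 reads added, Mta3/Mta2 (-1.51) passed, as did Smarcd1/Smarcd3 (-2.0). Smarcd3 held at most 7 reads in any library, so that the added reads weigh heavily in the last ratio, and nothing is drawn from it. The replicate block left 14 higher and 14 lower in the sex-converted line and 13 and 13 in the native line. A crossed pairing of the native GV numbers, chosen after seeing the data, gave 14 and 15, and 13 and 15. Chd3 and Mta1 were the native additions (edgeR adjusted p = 0.0288 and 0.0428).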

Other observations

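The GV libraries with the most mitochondrial mRNA, sex-converted replicate 2 and native replicate 1, were both above the other two GV libraries for 17 of the 40 remodelling genes (42.5%, against 29.7% of all tested genes) and both below for 5 (12.5%, against 28.1%). Smarca5 had 66.7 and 91.9 CPM in these libraries, against 49.8 and 52.8 CPM in the other two. Smarcad1 had 54.4 and 66.4 CPM, against 35.9 and 42.8 CPM. Brd7 had 115 and 126 CPM, against 78.6 and 85.1 CPM. In each of these genes every MII library was above all 4 GV libraries. The part of these library differences in the stage results was not tested.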
